A study of Homo sapiens with 12 samples.

Results

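RNA-seq libraries of LNCaP cells carrying an shRNA against TMEFF2 (sh_TMEFF2) were compared after stimulation with dihydrotestosterone (DHT) and after vehicle alone. LNCaP is a human prostate cancer line whose growth responds to androgen, and TMEFF2 is a membrane protein of prostate cells. The comparison used 6 of the 12 libraries of the study, the 3 sh_TMEFF2 +DHT and the 3 sh_TMEFF2 -DHT libraries, chosen by their labels, and covered 15419 of 34643 genes after a filter on low counts. The other 6 libraries carried a scramble shRNA (sh_scramble), with and without DHT, and served to show where the response of the sh_TMEFF2 cells differed. All cells were transduced with lentivirus that expresses the shRNA from the U6 promoter of pLKO.1-puro, were selected in puromycin, and were treated about 2.5 weeks after transduction. They spent 24 h in medium with charcoal-stripped serum, which holds little androgen, and then 24 h with 10 nM DHT (+DHT) or with ethanol (-DHT). The 3 repeats of a group were separate treatments and extractions of cells from 2 transductions, and which repeat came from which transduction is not said, nor which TMEFF2 shRNA the sequenced cells carried. P-values therefore measure the spread between treatments of few transduced populations.

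DHT is the most potent natural androgen of the prostate, and androgens raise or lower the transcription of many target genes. In luminal prostate cells these targets include secreted kallikrein proteases, lipid-synthesis enzymes and the proteins that fold and carry secreted cargo. Androgen also drives the division of LNCaP cells, and genes for DNA replication and mitosis are transcribed in waves as cells go through the cycle, largely under E2F factors and the DREAM and MuvB complexes, which bind E2F sites and the cell cycle homology region (CHR) in promoters.

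The libraries of all 4 groups held 19450866 to 22612046 estimated counts, and the 6 sh_TMEFF2 libraries 20425729 to 22612046. The targeted gene, TMEFF2, had 68.6, 39.3 and 81.7 CPM (counts per 1e+06 counts of the library) in the sh_TMEFF2 -DHT libraries, against 77.8, 73.8 and 103 in sh_scramble -DHT. With DHT it had 142, 90.1 and 114 CPM in sh_TMEFF2 and 173, 117 and 169 in sh_scramble. It rose 1.83-fold with DHT in sh_TMEFF2 (edgeR adjusted p = 0.038), a call lost without -DHT replicate 1 (log2 0.93), -DHT replicate 2 (0.62), +DHT replicate 1 (0.69) or +DHT replicate 3 (0.89) and with either of its 2 columns alone. At each DHT level the ranges of the 2 lines overlapped, so the TMEFF2 level does not by itself separate the libraries by their label. The label as prostate cells was met: all 12 luminal prostate markers reached 1 CPM on average in the sh_TMEFF2 libraries, whereas 0 of 4 basal epithelial markers did and KRT5 was at 0. Of 6 stromal markers, COL1A1 (20.5 CPM on average) and COL3A1 reached that level. The summed stromal markers came to 24.3 to 35.7 CPM in -DHT and 17.6 to 21.6 in +DHT libraries, and COL1A1 was called lower with DHT (log2 -0.68), except without -DHT replicate 1 (-0.53). Of 6 blood cell and endothelial markers VWF and PTPRC did, CD3E was at 0, and the sums were 26.9 to 33.1 and 24.8 to 33.7 CPM. The part of other cell types in the results was not tested, and in bulk RNA fewer cells of a type and less RNA per cell cannot be told apart.

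Each library was deposited as 2 columns, which were summed. Within a library 96 to 163 of the genes tested (0.623% to 1.06%) differed at least 2-fold between its columns at 5 CPM or more. In every library either column could be the higher one, but in the sh_TMEFF2 -DHT libraries a small set of genes had far more counts in the second column, in the same direction across libraries. There were 8 genes with such an excess in all 3 -DHT libraries, and 7 of them were called lower with DHT. The values of most of these 8 genes are given at the end, with those of some genes that had an excess in fewer libraries. None of them is read as a response to DHT. The counts over all genes are also given without every gene whose columns differed in any sh_TMEFF2 library.

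A gene was called when it changed 1.5-fold or more with a Benjamini-Hochberg adjusted p no higher than 0.05 in edgeR's quasi-likelihood test. With DHT, 506 genes rose in sh_TMEFF2 cells (3.28% of those tested) and 247 fell (1.60%). The median fold change was 1.83 among both the genes that rose and the genes that fell, and 173 rose and 92 fell at least 2-fold. In 496 of the 506 and 236 of the 247 the +DHT and -DHT libraries did not overlap. Of all genes tested 15.6% had no overlap with +DHT higher and 15.7% with +DHT lower. The first principal component of the 6 libraries took 38% of the variance and separated the treatments, with -DHT libraries at -30.4 to -17 and +DHT libraries at 13.7 to 34.6. Without genes whose columns differed, 489 rose and 219 fell. Leaving out single libraries gave 363 to 590 genes that rose, and 103 (without sh_TMEFF2 +DHT replicate 3) to 335 genes that fell. The number that fell was also 156 without sh_TMEFF2 -DHT replicate 2, so it is the less firm of the 2 counts.

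The same contrast in sh_scramble cells called 840 genes higher (5.45%) and 995 lower (6.45%). Of these, 212 were called higher in both lines (41.9% of the 506 and 25.2% of the 840), and 162 were called lower in both (65.6% of the 247 and 16.3% of the 995). Genes called higher in sh_scramble had a median log2 fold change of 0.96 there and 0.38 in sh_TMEFF2, with the same sign in 89% of them, and those called lower had -0.97 and -0.41, with the same sign in 89.5%. Genes called higher in sh_TMEFF2 had a median of 0.87 there and 0.50 in sh_scramble, and those called lower had -0.88 in both lines. In each case the line in which genes were selected is favoured by the selection, so these medians do not compare the lines. The difference of the log2 responses, sh_TMEFF2 minus sh_scramble, was tested directly by the interaction term. It was positive for 254 genes (1.65%) and negative for 507 (3.29%) at an adjusted p no higher than 0.05. A positive difference can be a stronger rise or a weaker fall. Of the 254 genes, 185 were called lower in sh_scramble and 19 were called higher in sh_TMEFF2. Of the 507 genes with a negative difference, 346 were called higher in sh_scramble. Of the genes called in sh_TMEFF2, 432 of the 506 that rose and 212 of the 247 that fell passed the interaction test in neither direction. The count of 254 was 127 without sh_scramble -DHT replicate 2, 148 without sh_TMEFF2 +DHT replicate 1, 152 and 165 without sh_TMEFF2 -DHT replicates 2 and 1, and 159 and 160 without sh_scramble -DHT and +DHT replicate 1. The count of 507 was 329 without sh_scramble +DHT replicate 1 and up to 471 without other libraries. With library sizes in place of TMM scaling the split was 370 positive and 398 negative.

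**Figure D1:**
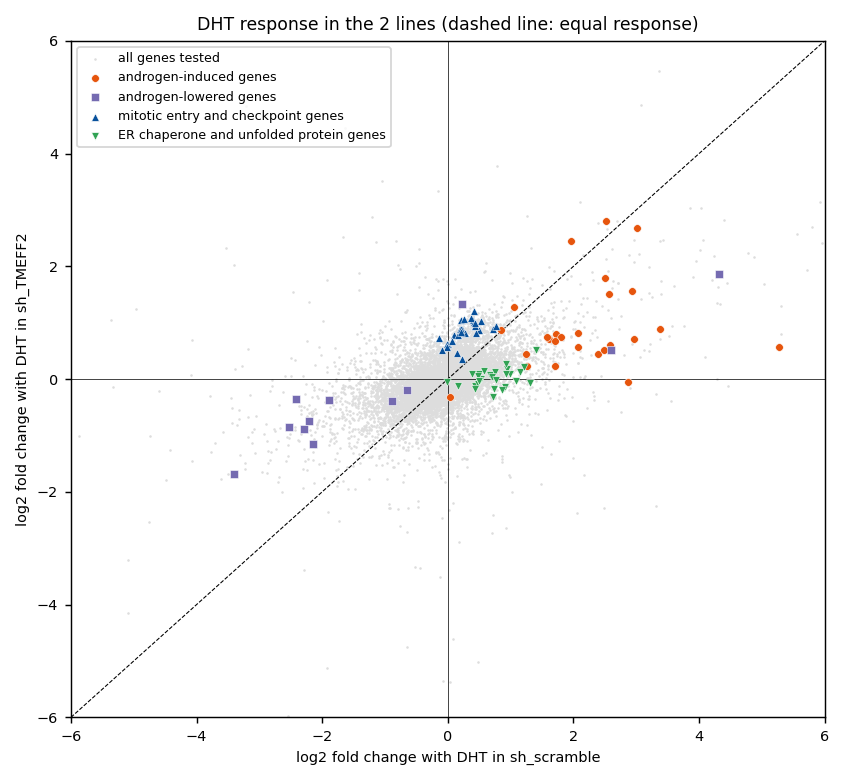
Log2 fold change with DHT in sh_scramble (horizontal) and sh_TMEFF2 (vertical) for all genes tested, with 4 gene lists coloured. Androgen-induced genes lie mostly below the dashed line of equal response, mitotic entry genes above it near 0 on the horizontal axis, and ER chaperone genes near 0 on the vertical axis; 17 genes lie outside the axes.

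The kallikreins rose strongly. These are neighbouring genes on chromosome 19 for secreted serine proteases, of which KLK3 is prostate-specific antigen. KLK3 (19:50854915-50860764 on GRCh38, plus strand) had 305, 255 and 509 CPM in the sh_TMEFF2 -DHT libraries and 1452, 1921 and 2474 with DHT. KLK2 had 33.1, 20.71 and 44.2 CPM without and 182, 218 and 283 with DHT. Every +DHT library lay above every -DHT library for both genes. KLK2 rose 6.97-fold (log2 2.80 ± 0.23 SE, adjusted p = 4.99e-05), KLK3 rose 5.47-fold (log2 2.45 ± 0.23, adjusted p = 0.000112), and KLK4 rose 2.44-fold from 51.8 to 126 CPM on average (adjusted p = 0.000287). The differences of the log2 responses between the lines did not pass the test, with 0.29 ± 0.31 SE for KLK2, 0.49 ± 0.30 for KLK3 and 0.23 ± 0.19 for KLK4 (adjusted p = 0.71, 0.46 and 0.62). A p that misses the threshold does not show that the lines responded alike. The levels differed by line at the same time, since the 3 sh_scramble -DHT libraries (1900 to 1953 CPM of KLK3, 219 to 270 of KLK2) lay within the range of the sh_TMEFF2 +DHT libraries, a comparison that was not tested here. KLK2 and KLK3 are close paralogs, so some of their counts may be shared.

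The 250 bases before the RefSeq start of KLK3 on GRCh38.p14 (chr19:50854665-50854914, plus strand) are shown because the window holds AGAACA, 1 arm of the palindrome of androgen response elements, starting 170 bases before the start (capitals). The same letters on either strand were found in 12.4% of all 35116 promoter windows of this length, so the match is a description of the sequence and not a site that these data tested.
KLK3: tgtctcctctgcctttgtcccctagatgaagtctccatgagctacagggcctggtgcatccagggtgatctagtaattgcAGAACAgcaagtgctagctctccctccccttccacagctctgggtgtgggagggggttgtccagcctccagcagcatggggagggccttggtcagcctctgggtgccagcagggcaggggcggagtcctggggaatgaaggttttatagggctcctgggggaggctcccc

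Of 26 androgen-induced genes tested, 16 rose in sh_TMEFF2 cells (61.5%) and 0 fell, with a median log2 fold change of 0.72, while 25 rose in sh_scramble with a median of 2.07. Among all genes tested 3.28% rose in sh_TMEFF2 and 5.45% in sh_scramble. The median of all genes tested was -0.02 in sh_TMEFF2 and -0.01 in sh_scramble. The number of the 26 that rose in sh_TMEFF2 was 12 without sh_TMEFF2 -DHT replicate 1 and 13 with the first column of each library alone. The difference of responses passed the test as negative for 17 of the 26 genes and as positive for 0, against 3.29% and 1.65% of all genes tested.

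The members were far from uniform. TRPM8, a cold-sensing cation channel, was at 2.12, 2.12 and 2.14 CPM without and at 10.7, 16.0 and 14.2 CPM with DHT, a 6.40-fold rise (adjusted p = 2.72e-05). Its groups did not overlap, and its rise was of the size of those of KLK2 and KLK3.

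FKBP5, a co-chaperone of steroid receptors, is another androgen target. It had 57.3, 58.6 and 66.1 CPM without and 86.1, 114 and 136 CPM with DHT in sh_TMEFF2. The groups did not overlap and the rise was 1.85-fold (adjusted p = 0.00295), against a log2 fold change of 3.38 in sh_scramble. The difference of -2.50 ± 0.21 SE passed the test (adjusted p = 8.37e-05). ACSL3, which activates long-chain fatty acids, showed the same pattern with log2 0.61 in sh_TMEFF2, 2.59 in sh_scramble and a difference of -1.98 (adjusted p = 8.37e-05). Its call in sh_TMEFF2 lay at the fold limit and was lost without sh_TMEFF2 -DHT replicate 1 (log2 0.57), +DHT replicate 2 (0.57) or +DHT replicate 3 (0.55). SORD, which oxidises sorbitol, and ABHD2, a lipid hydrolase, rose 1.67-fold each, with differences of -1.07 and -0.84 (adjusted p = 8.59e-05 and 0.00776).

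Some classical targets did not pass the test in sh_TMEFF2. TMPRSS2, a membrane protease, had 79.8, 189 and 173 CPM without and 110, 162 and 449 with DHT, with overlapping groups (log2 0.70 ± 0.47 SE, adjusted p = 0.37), and without +DHT replicate 3 its log2 value was -0.10. Its columns differed in 2 of the sh_TMEFF2 libraries, and with the second column alone it passed (log2 1.31, adjusted p = 0.027). NDRG1, a gene linked to differentiation and stress, had 54.1 to 66.1 CPM without and 62.7 to 78.8 with DHT, also overlapping (log2 0.22, adjusted p = 0.56), and its difference from sh_scramble was -1.48 (adjusted p = 0.016). STEAP4, a metalloreductase, went from 0.913 to 1.49 CPM to 0.926 to 2.36 in sh_TMEFF2 (log2 0.56, adjusted p = 0.29), whereas the log2 fold change in sh_scramble was 5.28, a difference of -4.72 (adjusted p = 9.50e-05). MAF, a leucine zipper factor, had log2 values of -0.05 in sh_TMEFF2 with a difference of -2.92 (adjusted p = 0.000701).

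**Figure D2:**
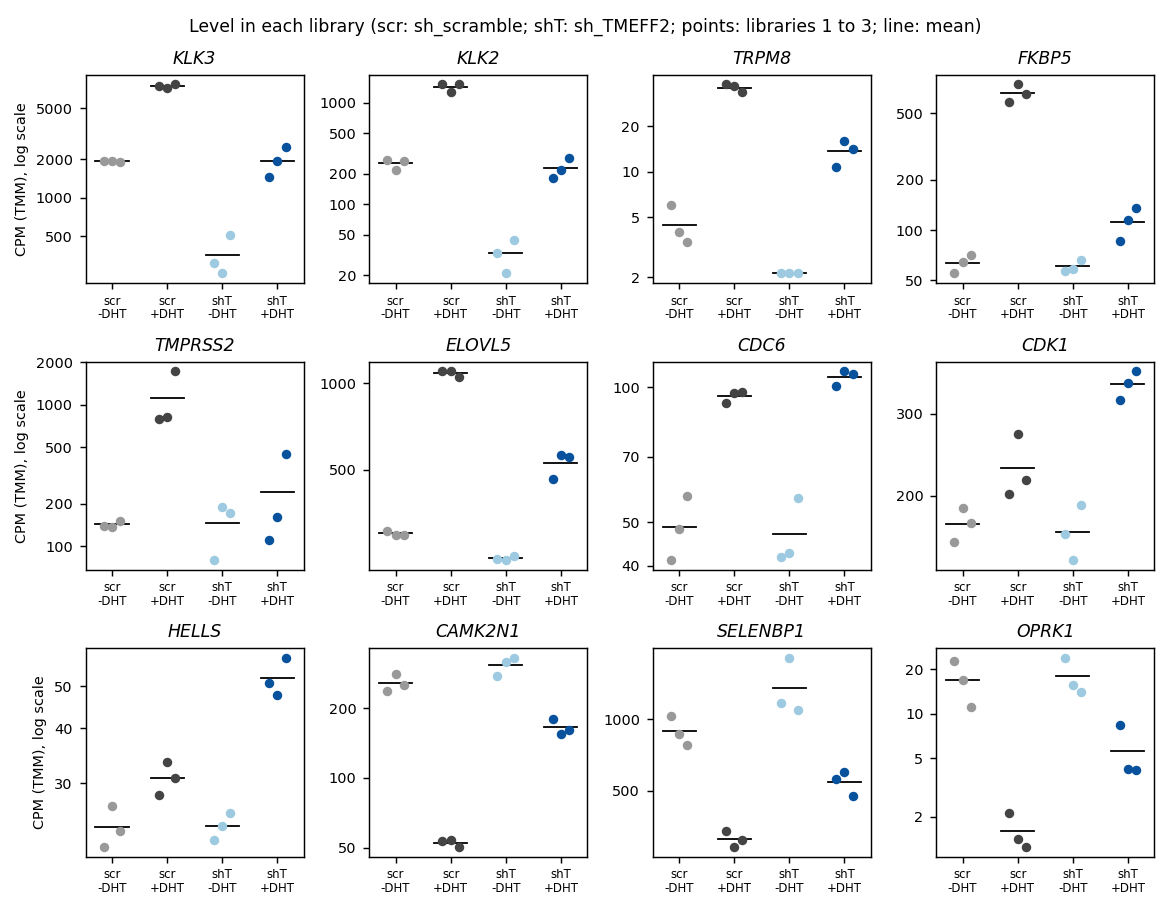
CPM on a log scale for 12 genes in each of the 12 libraries (points) of the 4 groups, with the group mean as a line. KLK3 and KLK2 rise in both lines from different levels, FKBP5 and ELOVL5 rise less in sh_TMEFF2, TMPRSS2 overlaps between the sh_TMEFF2 groups, CDK1 and HELLS are highest in sh_TMEFF2 +DHT, and CAMK2N1 falls in both lines.

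Fewer of the genes that androgen lowers passed the test in sh_TMEFF2 than in sh_scramble. Of 12 androgen-lowered genes 3 fell (25%) and 1 rose in sh_TMEFF2 (median log2 -0.38), against 1.60% and 3.28% of all genes tested. In sh_scramble 9 fell and 2 rose (median -2.02), against 6.45% and 5.45%. The difference passed the test as positive for 6 and as negative for 2, against 1.65% and 3.29% of all genes tested. The median in sh_TMEFF2 was -0.68 without +DHT replicate 1, the library in which the list fell least. CAMK2N1, an inhibitor of the kinase CaMKII (1:20482391-20486210, minus strand), had 275, 316 and 330 CPM without and 180, 155 and 161 with DHT. The groups did not overlap and the fall was 1.86-fold (log2 -0.89 ± 0.086 SE, adjusted p = 0.000144), against log2 -2.29 in sh_scramble, a difference of 1.40 (adjusted p = 8.37e-05). DDC, the decarboxylase that makes dopamine and serotonin, fell 1.81-fold, with a difference of 1.68 (adjusted p = 0.000192).

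OPRK1, the kappa opioid receptor, had 24.0, 15.7 and 14.1 CPM without and 8.38, 4.20 and 4.14 with DHT and fell 3.22-fold (adjusted p = 0.00583). UGT2B28, an enzyme of the family that conjugates androgens to glucuronic acid, was the member that rose, from 2.08 to 3.08 CPM to 7.32 to 11.4 (3.63-fold, adjusted p = 0.00221). It rose in sh_scramble too, and more strongly, with a difference of -2.45 on the log2 scale that passed the interaction test. UGT2B15 (275 to 782 CPM without and 151 to 521 with DHT) and UGT2B17 (261 to 553 and 178 to 501 CPM) overlapped between the groups and did not pass the test, except that UGT2B15 was called lower without +DHT replicate 1 (log2 -1.36). The UGT2B genes are related in sequence, so some of their counts may be shared and how these are split is uncertain.

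Genes of DNA replication, repair and mitosis rose in large numbers. Of 179 genes in 6 lists, 140 rose with DHT in sh_TMEFF2 (78.2%) and 0 fell, with a median log2 fold change of 0.84 (fold 1.79) and 176 values above 0. Among all genes tested 3.28% rose, 1.60% fell and 46.7% had values above 0. The same shares stand beside the counts of the single lists below. In sh_scramble 21 of the 179 rose and 1 fell, with a median of 0.36, against 5.45% and 6.45% of all genes tested. The difference of the log2 responses was above 0 for 174 of the 179, with a median of 0.43, and for 7849 of all 15419 genes tested. For single genes of the 179 it passed the test 8 times in the positive direction and 2 in the negative, against 1.65% and 3.29% of all genes tested. The positive count was not firm. It was 45 without sh_TMEFF2 -DHT replicate 3 and 13 without sh_scramble +DHT replicate 2. It was 1 without sh_scramble -DHT replicates 2 or 3, sh_scramble +DHT replicate 1 or sh_TMEFF2 -DHT replicate 1, 2 without sh_TMEFF2 -DHT replicate 2 or +DHT replicate 3, and 3 without sh_scramble +DHT replicate 3 or sh_TMEFF2 +DHT replicate 2. DESeq2 gave 30. The study selected cell cycle genes from these same samples and the lists here were written with earlier results known, so their direction is not independent evidence.

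Among 47 genes for replication origins and forks, 35 rose and 0 fell (median log2 0.77). CDC6, which loads the replicative helicase, had 41.9, 42.7 and 56.6 CPM without and 101, 109 and 107 CPM with DHT. The groups were far apart and the rise was 2.24-fold (log2 1.16 ± 0.12 SE, adjusted p = 0.000287). CLSPN, an adaptor of the replication checkpoint, and CDC45, a part of the helicase, both rose 2.22-fold, and the sliding clamp gene PCNA rose 1.83-fold from a range of 124 to 175 CPM to 244 to 290. All 47 values were above 0, the lowest at 0.17 for POLE. CDC6 rose in sh_scramble too, with a log2 value of 0.97 and a difference of 0.20 ± 0.17 SE between the lines (adjusted p = 0.64). For 0 of the 47 genes did that difference pass the test in edgeR, and for 2 in DESeq2 and 4 without sh_TMEFF2 -DHT replicate 3.

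Of 11 genes for deoxynucleotide supply 5 rose (median log2 0.54). RRM2, the small subunit of ribonucleotide reductase, had 91.3, 100 and 123 CPM without and 211, 242 and 272 with DHT, a 2.31-fold rise without overlap (adjusted p = 0.00126). TYMS, which makes thymidylate, rose 1.88-fold, RRM1, the large subunit, 1.63-fold, and DCK, a salvage kinase, 1.53-fold. The call of DCK was lost without sh_TMEFF2 -DHT replicate 2 (log2 0.48) or +DHT replicate 3 (0.56).

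Of 30 homologous recombination and Fanconi genes 23 rose (median log2 0.86). BRCA2, which acts in the repair of double-strand breaks, had 17.7, 16.9 and 24.6 CPM without and 42.6, 43.5 and 50.6 with DHT. Its groups did not overlap and it rose 2.31-fold (log2 1.21 ± 0.22 SE, adjusted p = 0.00396). EME1, a subunit of a junction-cutting nuclease, rose 2.27-fold. BARD1 was the one member of the list below 0, at log2 -0.05. It was called lower in sh_scramble (log2 -0.97), and its positive difference of 0.92 passed the interaction test without a rise in sh_TMEFF2.

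In the G1/S control list of 28 genes 9 rose (32.1%) and 0 fell, against 3.28% and 1.60% of all genes tested. Its 9 genes that rose included the E2F repressors E2F7 (2.42-fold) and E2F8 (2.15-fold), the activators E2F2 (1.98-fold) and E2F1 (1.98-fold) and cyclin E2, CCNE2 (1.65-fold). E2F7 went from 9.21 to 10.7 CPM to 20.2 to 27.7 CPM (adjusted p = 0.000419). Cyclin D1, CCND1, the inhibitor CDKN1A and CDK4 did not pass, with log2 values of -0.18, -0.31 and 0.14. The list median was 0.24 and its lowest value -0.79.

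Mitotic genes rose in nearly every case. Of 32 mitotic entry and checkpoint genes 28 rose and 0 fell (median log2 0.87), against 2 in sh_scramble (median 0.22). CDK1, the kinase that drives entry into mitosis (10:60778331-60794852, plus strand), had 166, 145 and 191 CPM without and 320, 349 and 370 with DHT. Its groups did not overlap and it rose 2.07-fold (log2 1.05 ± 0.12 SE, adjusted p = 0.000419), with a positive difference of 0.65 ± 0.17 from the sh_scramble response (adjusted p = 0.043). GSG2, which phosphorylates histone H3, rose 2.31-fold, the centromere kinase AURKB 2.11-fold, and the separase gene ESPL1 2.09-fold.

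The weakest members of the same list were closer to the limit. PLK1 and CCNB1, a mitotic kinase and cyclin B1, rose 1.66-fold and 1.54-fold, but both calls were lost without any 1 of 4 sh_TMEFF2 libraries, -DHT replicates 1 and 2 and +DHT replicates 2 and 3, with log2 values of 0.62 to 0.68 for PLK1 and 0.53 to 0.58 for CCNB1. The groups of PLK1 overlapped slightly, 41.5 to 63.2 CPM without and 62.6 to 93.3 with DHT. The count of 28 was 19 without sh_TMEFF2 -DHT replicate 1 and 30 without -DHT replicate 3, and the interaction test passed for 2 of the 32, for 14 without sh_TMEFF2 -DHT replicate 3 and for 0 without sh_TMEFF2 -DHT replicates 1 or 2, +DHT replicates 2 or 3, sh_scramble -DHT replicates 2 or 3 or sh_scramble +DHT replicate 1.

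Of 29 centromere and kinetochore genes 22 rose (median log2 0.91), and of 30 mitotic kinesin, condensin and cytokinesis genes 27 rose (median 0.87), where sh_scramble had 1 and 2. CENPI, a centromere protein, had 13.7, 10.7 and 14.8 CPM without and 28.5, 32.2 and 34.1 with DHT (2.42-fold, adjusted p = 0.000677). SPC25 and SPC24, subunits of the NDC80 complex of the kinetochore, rose 2.39-fold and 2.23-fold. NCAPG, a condensin subunit, had 40.6, 38.9 and 58.5 CPM without and 94.9, 110 and 140 with DHT, and at 2.50-fold (log2 1.32 ± 0.19 SE, adjusted p = 0.00139) it was the highest of the 179. NUSAP1, a spindle protein, rose 2.17-fold and ANLN, a scaffold of the cleavage furrow, 2.11-fold. Without sh_TMEFF2 -DHT replicate 2 the kinetochore count was 16, and without +DHT replicate 3 the kinesin count was 20.

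For CDK1, NUSAP1, CENPI and the chromatin gene HELLS the response also differed between the lines by the interaction test. HELLS, a helicase that opens chromatin for DNA methylation (10:94545329-94613905, plus strand), had 22.2, 23.9 and 25.6 CPM without and 50.7, 47.6 and 58.0 with DHT in sh_TMEFF2, and 21.4 to 26.5 and 28.2 to 33.5 CPM in sh_scramble. The sh_TMEFF2 +DHT libraries lay above all 9 others. The 2.18-fold rise (adjusted p = 0.00012) exceeded that of sh_scramble by 0.75 on the log2 scale (± 0.15 SE, adjusted p = 0.013), and this call was lost with the first column alone and held under the other 20 of 21 alternatives. The differences for NUSAP1 (0.80, adjusted p = 0.043) and CENPI (0.87, adjusted p = 0.043) were lost under 9 and 11 of 21 alternatives and that for CDK1 under 10, mostly with 1 library left out, and leaving out 1 library gave 0.66 to 0.94, 0.75 to 1.06 and 0.56 to 0.80.

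**Figure D3:**
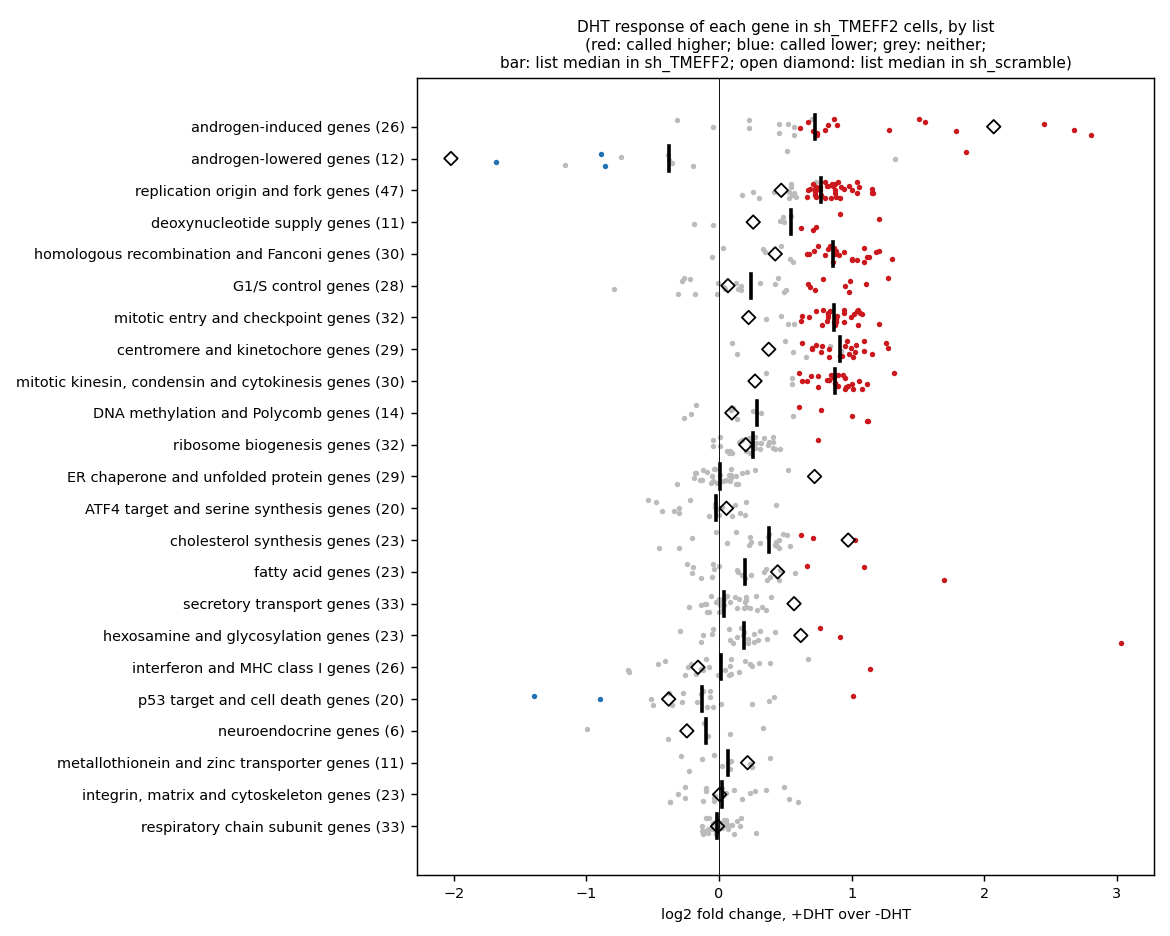
Log2 fold change with DHT in sh_TMEFF2 for every tested member of 23 gene lists (points, red where called higher, blue where called lower), with the list median in sh_TMEFF2 (bar) and in sh_scramble (open diamond). The replication, repair and mitosis lists centre between 0.54 and 0.91 with the diamonds to their left, and the androgen-induced, ER chaperone, secretory and cholesterol lists have their diamonds to the right.

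Promoters of 3 of these genes are shown because their windows hold the letters of an E2F site (TTTGGCGC or TTTCCCGC) or of the CHR (TTTGAA) in capitals, the elements through which cell cycle genes are known to be timed. Each is 250 bases before a RefSeq start on GRCh38.p14, plus strand. CDK1 (chr10:60778228-60778477, the second of its 2 windows) holds TTTGAA 69 and 13 bases before the start, HELLS (chr10:94545538-94545787) holds GCGCCAAA, the reverse complement of TTTGGCGC, at 76 and TTTCCCGC at 8 bases, and NUSAP1 (chr15:41332631-41332880) holds TTTGGCGC at 174 bases.
CDK1: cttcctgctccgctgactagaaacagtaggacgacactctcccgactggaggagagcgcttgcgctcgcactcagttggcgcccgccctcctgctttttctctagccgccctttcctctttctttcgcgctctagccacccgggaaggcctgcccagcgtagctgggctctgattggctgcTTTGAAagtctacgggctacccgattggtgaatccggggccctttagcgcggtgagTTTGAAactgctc
HELLS: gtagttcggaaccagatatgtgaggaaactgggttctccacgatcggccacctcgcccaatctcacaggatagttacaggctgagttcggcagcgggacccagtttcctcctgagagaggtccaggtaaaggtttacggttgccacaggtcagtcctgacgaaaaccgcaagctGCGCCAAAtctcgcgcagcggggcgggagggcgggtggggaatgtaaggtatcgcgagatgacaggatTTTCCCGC
NUSAP1: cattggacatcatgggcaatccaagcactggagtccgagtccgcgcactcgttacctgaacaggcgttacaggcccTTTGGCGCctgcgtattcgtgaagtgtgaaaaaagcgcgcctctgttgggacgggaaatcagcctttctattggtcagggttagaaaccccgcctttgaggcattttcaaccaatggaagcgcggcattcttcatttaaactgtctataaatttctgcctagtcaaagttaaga
On either strand TTTGGCGC was found in 0.55% of all 35116 windows, TTTCCCGC in 1.39% and TTTGAA in 13.3%. Only 74.7% of the genes that rose and 64.8% of those that fell could be matched to a window, so no share of motifs was set over them.

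Libraries of one group also differed in how far these lists were shifted. The median of the mitotic entry list, taken for each library relative to the mean of the -DHT libraries, was -0.13, -0.18 and 0.31 on the log2 scale in -DHT replicates 1 to 3 and 0.61, 0.90 and 1.07 with DHT. The replication list gave -0.11, -0.11 and 0.22 without and 0.67, 0.82 and 0.93 with DHT. In both lists +DHT replicate 1 was the lowest of its group and -DHT replicate 3 the highest of its own, and the groups stayed apart. +DHT replicate 1 also had the smallest shift of the androgen-induced (0.51, against 0.86 and 0.83) and the androgen-lowered lists (-0.15, against -0.62 and -0.66).

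**Figure D4:**
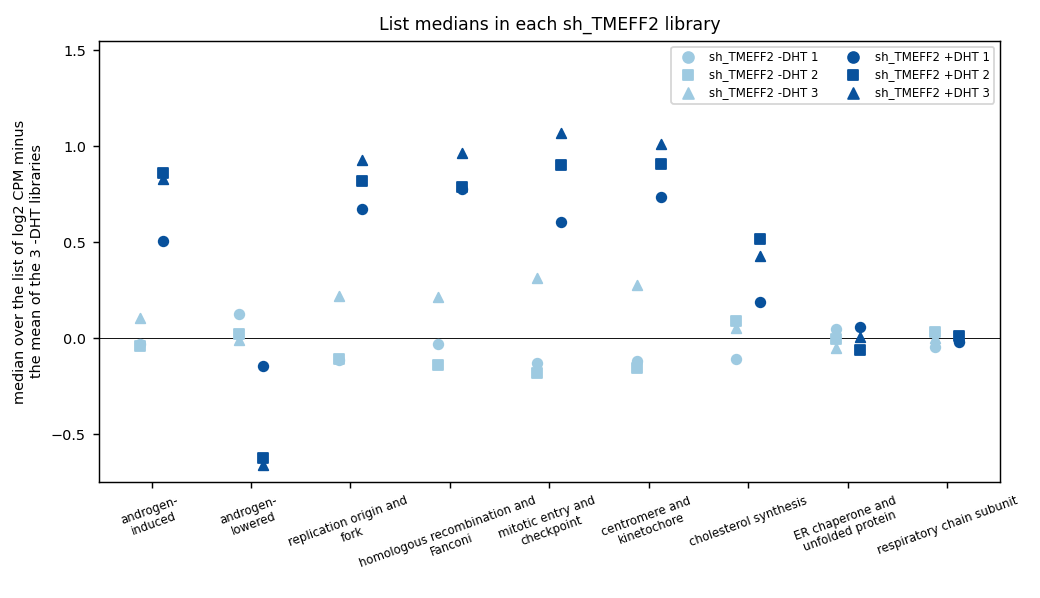
Median over each of 9 lists of the log2 CPM minus the mean of the 3 -DHT libraries, for the 6 sh_TMEFF2 libraries. The +DHT libraries sit above the -DHT libraries for the androgen-induced, replication, recombination, mitotic, kinetochore and cholesterol lists, below them for the androgen-lowered list, and among them for the ER chaperone and respiratory chain lists.

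Of 14 genes in the DNA methylation and Polycomb list, which also holds other chromatin genes, 5 rose and 0 fell (median log2 0.28). They were HELLS, the bromodomain ATPase ATAD2 (2.16-fold), the histone chaperone ASF1B (2.01-fold), UHRF1, which guides maintenance methylation (1.70-fold), and EZH2, the Polycomb methyltransferase (1.52-fold). EZH2 went from 36.6 to 46.0 CPM to 58.6 to 66.4 CPM, and its call was lost without -DHT replicate 1 (log2 0.53), -DHT replicate 2 (0.57) or +DHT replicate 3 (0.55). DNMT3A and EZH1 had log2 values of -0.18 and -0.27. Of 32 ribosome biogenesis genes 1 was called, LYAR, a nucleolar protein, at 1.68-fold, a share near the 3.28% of all genes tested. The median was 0.25, and 30 values were above 0, as were 46.7% of all genes tested. At any size of rise, 15 passed on the adjusted p alone, as did 7.84% of all genes tested. The sh_scramble median was 0.20. MYC, a driver of ribosome synthesis, had 167 to 201 CPM without and 211 to 221 with DHT, without overlap but also without passing the test (log2 0.23, adjusted p = 0.10).

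Lipid genes answered in part. Of 23 cholesterol synthesis genes 3 rose in sh_TMEFF2 (median log2 0.38) and 17 in sh_scramble (median 0.97), and the difference was negative for 9 (14 with DESeq2). EBP, a sterol isomerase, had 44.7, 45.7 and 52.3 CPM without and 68.2, 83.0 and 81.7 with DHT, a 1.63-fold rise without overlap (adjusted p = 0.000954). INSIG1, the brake on SREBP, rose 1.53-fold, at an adjusted p of 0.049 that was lost under 11 of 23 alternatives, 9 of them with 1 library left out, and the log2 value over all libraries left out in turn ran from 0.48 to 0.77.

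Of 23 fatty acid genes 3 rose, against 10 in sh_scramble. ELOVL7, an elongase of very-long-chain fatty acids, had 24.9, 27.9 and 23.6 CPM without and 60.1, 88.9 and 98.9 with DHT (3.24-fold, adjusted p = 0.000287). ELOVL5, which elongates polyunsaturated fatty acids, went from 243 to 252 CPM to 464 to 563 (2.14-fold, adjusted p = 7.14e-06), and the desaturase FADS1 rose 1.58-fold. FASN, the fatty acid synthase, had log2 0.36 (adjusted p = 0.073) and a difference of -0.97 (adjusted p = 0.00733).

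Genes of protein folding and secretion gave no calls in sh_TMEFF2. Of 29 ER chaperone and unfolded protein genes 0 were called by edgeR, DESeq2 or limma-voom, and 3 had an unadjusted edgeR p under 0.05, all of them higher with DHT. Of all genes tested 14.1% were higher and 13.0% lower at that unadjusted p. The list median was 0.00 in sh_TMEFF2, whereas 17 rose in sh_scramble (median 0.72). The difference was negative for 21 of the 29, and below 0 for all 29. The count of 21 was 13 without sh_TMEFF2 -DHT replicate 1, sh_TMEFF2 +DHT replicates 2 or 3, sh_scramble -DHT replicate 2 or sh_scramble +DHT replicate 1. HSPA5, the main ER chaperone, had 656 to 904 CPM without and 517 to 755 with DHT, overlapping (log2 -0.32, adjusted p = 0.27). XBP1, a transcription factor of the unfolded protein response, had a log2 value of 0.00 and a difference of -0.52 (adjusted p = 0.011). With the first column alone 1 of the 29 was called higher.

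Of 33 genes for translocation and vesicle transport 0 were called by edgeR, DESeq2 or limma-voom (median log2 0.04). At any size of rise, 5 of the 33 passed on the adjusted edgeR p alone, against 7.84% of all genes tested. At an unadjusted edgeR p under 0.05, 11 of the 33 were higher and 1 lower, against 14.1% and 13.0% of all genes tested. In sh_scramble 14 rose (median 0.57), and the difference was negative for 20. SEC61B, a translocon subunit, went from 80.0 to 83.2 CPM to 92.0 to 95.8, without overlap and without passing the test (log2 0.21, adjusted p = 0.059). Of 23 hexosamine and glycosylation genes 3 rose. They were ST6GALNAC1, which caps O-glycans with sialic acid, GALNT7, an N-acetylgalactosamine transferase of O-glycans (1.89-fold), and UAP1, which makes UDP-N-acetylglucosamine (1.70-fold). In sh_scramble 11 rose, and the difference was negative for 11. That count was 6 without sh_scramble +DHT replicate 1 and 7 without sh_scramble -DHT replicate 2, sh_TMEFF2 -DHT replicate 2 or sh_TMEFF2 +DHT replicates 2 or 3. ATF4 target and serine synthesis genes gave 0 called of 20 in sh_TMEFF2 by edgeR, DESeq2 or limma-voom (median -0.03, with 2 higher and 4 lower at an unadjusted edgeR p under 0.05) and 2 lower in sh_scramble (median 0.06).

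Other lists held few calls, where 3.28% of all genes tested were called higher and 1.60% lower. The share called higher was 3.85% of the interferon and MHC class I genes and 5% of the p53 target and cell death genes. Both are near the share of all genes, and 10% of the latter list were called lower. Of 26 interferon and MHC class I genes tested 1 rose, OAS3, an RNA-degradation trigger, from 11.4 to 26.9 CPM to 33.4 to 45.0 (2.20-fold, adjusted p = 0.016), and this was lost without -DHT replicate 1 (log2 0.92), -DHT replicate 2 (0.96) or +DHT replicate 3 (0.99). Of 20 p53 target and cell death genes 1 rose and 2 fell. BCL2, which blocks apoptosis, went from 2.18 to 3.14 CPM to 4.43 to 5.70 (2.01-fold, adjusted p = 0.011), a call lost with the first column alone, and BMF, which promotes it, went from 30.4 to 48.5 CPM to 17.8 to 28.5 (a 1.87-fold fall, adjusted p = 0.010), lost without +DHT replicate 3 (log2 -0.76). The second gene that fell, MDM2, is one of those with unlike columns. By edgeR, DESeq2 and limma-voom 0 were called of 6 neuroendocrine, 11 metallothionein and zinc transporter, 23 integrin, matrix and cytoskeleton and 33 respiratory chain genes tested, with medians of -0.10, 0.07, 0.02 and -0.02. At an unadjusted edgeR p under 0.05 these lists had 0, 2, 2 and 2 genes higher and 0, 1, 1 and 1 lower. At that p 14.1% of all genes tested were higher and 13.0% lower.

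Several of the genes that rose most were of low level. CHRNA2, a nicotinic acetylcholine receptor subunit, had 0.769, 1.42 and 1.16 CPM without and 6.85, 12.1 and 10.7 with DHT. ADAM7, a member of the ADAM membrane protein family, had 1.49, 0.885 and 1.67 CPM without and 5.70, 13.1 and 14.4 with DHT. ST6GALNAC1 had 2.16, 2.04 and 1.25 CPM without and 11.5, 18.8 and 14.4 with DHT. All 3 genes rose 8.17-fold to 8.77-fold without overlap, and CHRNA2 rose less than in sh_scramble (difference -2.79 on the log2 scale, adjusted p = 0.00138), while ADAM7 and ST6GALNAC1 did not differ past the threshold (adjusted p = 0.30 and 0.31).

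TENM1, a teneurin, rose 7.001-fold from 2.02 to 2.92 CPM to 12.9 to 18.4, with log2 values of 2.81 in sh_TMEFF2 and 2.69 in sh_scramble. TRIM49D1 and the pseudogene ZNF812P rose 7.09-fold and 4.91-fold, and both belong to families of near-identical copies, so their counts are uncertain. HPGD, which inactivates prostaglandins, rose 5.98-fold from 0.721 to 1.44 CPM to 3.24 to 9.79, with a difference of -2.98 (adjusted p = 0.011), and F5, coagulation factor V, rose 4.59-fold. SDK2, a cell adhesion protein, had 0.144, 0.133 and 0.418 CPM without and 10.2, 4.97 and 5.34 CPM with DHT, a fitted 28.8-fold change (adjusted p = 0.014) that rests on few counts without DHT. The columns of SDK2 differed in 3 of the sh_TMEFF2 libraries, all of them +DHT, and nearly all its counts there lay in 1 column. The first and second columns had 0.113 and 21.7, 0.229 and 10.4, and 10.0 and 0.185 CPM in +DHT replicates 1 to 3. DESeq2 gave SDK2 no adjusted p, and the call was lost without -DHT replicate 1 (log2 4.62) or -DHT replicate 2 (4.57). Among the genes with the largest increases in CPM were KLK3, ELOVL5, SORD and ABHD2, of which SORD went from 382 to 417 CPM to 600 to 734.

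Several of the genes that fell most were also of low level. PCDH11X, a protocadherin, had 5.77, 10.9 and 6.45 CPM without and 1.90, 2.97 and 2.40 with DHT (a 3.18-fold fall, adjusted p = 0.00304). VWA2, a secreted matrix protein, fell 2.73-fold from 9.24 to 11.4 CPM to 3.25 to 4.68, less than in sh_scramble (difference 2.62, adjusted p = 0.00315). CNTN5, a contactin, fell 3.02-fold, GRIK1, a kainate receptor subunit, 2.70-fold and KALRN, a guanine nucleotide exchange factor, 2.67-fold, all without overlap. GRIK1 was not called with the first column alone (log2 -1.13, adjusted p = 0.056). CD200, a surface glycoprotein, fell 3.35-fold, a call (adjusted p = 0.040) lost under 7 of 22 alternatives, which were the second column and leaving out sh_scramble -DHT replicates 1 or 2 (log2 -1.75 and -1.74), sh_TMEFF2 -DHT replicates 1 or 2 (-1.60 and -1.68) or +DHT replicates 2 or 3 (-1.88 and -1.32).

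At high level, SELENBP1, a selenium-binding enzyme of sulfur metabolism (1:151364304-151372707, minus strand), had 1171, 1812 and 1087 CPM without and 561, 597 and 476 CPM with DHT. The groups did not overlap, and the fall was 2.49-fold in sh_TMEFF2 (log2 -1.32 ± 0.17 SE, adjusted p = 0.000797) and log2 -1.51 in sh_scramble, a difference of 0.19 ± 0.24 SE. GRB10, an adaptor of insulin and growth factor receptors, went from 723 to 802 CPM to 376 to 556 (a 1.69-fold fall, adjusted p = 0.00208), with a difference of 1.30 (adjusted p = 0.000952). SI, sucrase-isomaltase, fell 1.63-fold, with a difference of 2.62 (adjusted p = 0.000289), and its call in sh_TMEFF2 was lost without -DHT replicate 1 (log2 -0.66), -DHT replicate 2 (-0.69), +DHT replicate 2 (-0.59) or +DHT replicate 3 (-0.61). SESN3, a stress-induced sestrin, and ASAP2, an ARF GTPase-activating protein, were lower with DHT by log2 0.50 and 0.42, under the fold limit, with differences of 1.12 and 1.05 (adjusted p = 0.000393 and 0.000513).

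Other differences came from genes that hardly moved in sh_TMEFF2. SLC41A1, a magnesium carrier, had 59.0 to 66.0 CPM without and 56.3 to 70.1 CPM with DHT (log2 0.04) against log2 2.10 in sh_scramble, a difference of -2.06 (adjusted p = 6.65e-05). LIFR, the leukaemia inhibitory factor receptor, had log2 -0.10 and a difference of -1.64 (adjusted p = 6.65e-05). The luminal keratins KRT8 and KRT18 had log2 values of -0.15 and 0.06 with overlapping groups, and differences of -1.49 and -1.07 (adjusted p = 8.37e-05 and 8.59e-05). KRT19, at 1.44 to 2.43 CPM without and 2.55 to 4.98 with DHT, rose 2.17-fold (adjusted p = 0.017), a call lost without -DHT replicate 1 (log2 0.98), -DHT replicate 3 (1.02), +DHT replicate 2 (0.93) or +DHT replicate 3 (1.07).

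The lines were called in opposite directions for 4 genes, named for that reason after their values were seen. LAIR1, KCNH3 and ZPLD1 were called higher in sh_TMEFF2 and lower in sh_scramble, and PRKCA, protein kinase C alpha, lower and higher. PRKCA had 20.4 to 24.2 CPM without and 12.9 to 17.1 with DHT in sh_TMEFF2, and log2 values of -0.59 and 0.62 in the 2 lines, a difference of -1.20 (adjusted p = 0.00949). Its call in sh_TMEFF2 (adjusted p = 0.033) was lost under 12 of 23 alternatives, those of ZPLD1, KCNH3 and LAIR1 under 12 of 23, 13 of 22 and 18 of 22. KCNH3 and LAIR1 were below 2 CPM in the -DHT libraries, and the groups of KCNH3 and ZPLD1 overlapped. Leaving out 1 library gave log2 values of -0.71 to -0.50 for PRKCA, 0.57 to 0.97 for ZPLD1, 1.73 to 2.83 for KCNH3 and 0.82 to 1.17 for LAIR1. The direction of KCNH3 was not stable, since its columns differed in 2 of the sh_TMEFF2 libraries and gave log2 3.14 with the first (adjusted p = 0.087) and -0.73 with the second (adjusted p = 0.70).

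The genes with unlike columns stood high among the falls as computed. ARFGAP2, which acts in Golgi transport, had 57.8, 63.1 and 58.3 CPM in the first columns of the sh_TMEFF2 -DHT libraries and 944, 464 and 341 CPM in the second, and 50.9 to 64.3 CPM in both columns of the +DHT libraries. The fitted log2 fold change of the summed columns was -2.47, against -0.22 with the first column alone (adjusted p = 0.14) and -3.29 with the second. PPP1R7, a phosphatase regulator, gave -1.41 from the sum, -0.03 from the first and -2.17 from the second column, ITSN1, an endocytic scaffold, -1.44, 0.11 and -2.22, and MDM2, which degrades p53, -1.39, -0.04 and -2.22.

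The same held for RP11-632K20.7 (-1.56 from the sum, 0.40 and -2.53), MVP, the major vault protein (-2.90, -0.42 and -3.74), RPS18, a ribosomal protein (-1.10, 0.01 and -1.79), SMN2 (-2.33, 0.36 and -3.38) and CH17-13I23.3, which had 36.6 to 45.7 CPM in the second and under 1 CPM in the first columns without DHT. For MVP, RPS18 and SMN2 the excess was large in -DHT replicates 2 and 3 and small or absent in replicate 1, and without -DHT replicate 2 the summed values were -1.001, -0.77 and -1.59. SMN2 has a near-identical copy, SMN1, and RPS28P7, a processed pseudogene, had 12250 CPM in the second column of -DHT replicate 3 and at most 15.9 CPM in any other -DHT column (log2 -8.72 from the sum and -0.77 without that library). In all, 28 of the 247 genes that fell (11.3%) and 17 of the 506 that rose (3.36%) had columns that differed in at least 1 sh_TMEFF2 library, as did 2.98% of all genes tested. With each column alone, 330 of the 506 and 67 of the 247 were called with both. What put the counts into the second columns was not tested.

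**Figure D5:**
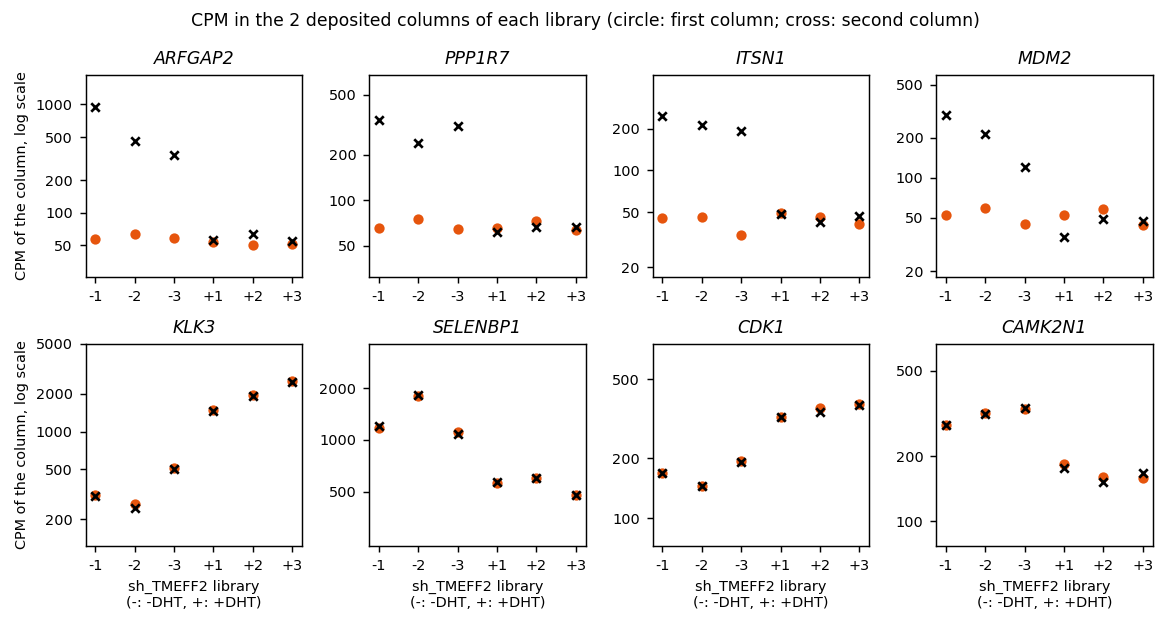
CPM on a log scale in the first (circle) and second (cross) deposited column of the 6 sh_TMEFF2 libraries for 8 genes. For ARFGAP2, PPP1R7, ITSN1 and MDM2 the crosses lie far above the circles in the -DHT libraries and meet them with DHT, while for KLK3, SELENBP1, CDK1 and CAMK2N1 the columns lie together in all 6 libraries.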

How the data were processed

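RNA from LNCaP cells was sequenced as paired-end reads in 12 libraries, 3 in each of 4 groups taken from the labels. Per the labels and the study's methods, the authors checked reads with FastQC, trimmed them with Trimmomatic and quantified transcripts of GRCh38 with kallisto 0.42.3. They deposited estimated counts (expected counts) per gene, of the lengthScaledTPM kind, scaled by transcript length and library size. The table holds 24 columns, 2 for each library, and what distinguishes the columns is not given in the sources used here. Both were summed and rounded to whole numbers. Near-identical, overlapping and antisense genes can share estimated counts, and whether strand was used is not given in the sources used here.

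Genes passing edgeR's filterByExpr (minimum count 10, minimum total 15) were kept. One edgeR 4.0.16 quasi-likelihood fit (R 4.3.3, TMM scaling) over all 12 libraries gave the DHT contrast in each line and their difference, with Benjamini-Hochberg adjusted p-values over all genes tested. The study's own tool was DESeq2. Standard errors are the log2 fold change divided by the square root of F. A gene was called at 1.5-fold and an adjusted p of 0.05, and the difference at an adjusted p of 0.05. Levels are CPM of the summed columns, with TMM-scaled library sizes. Columns of a library were said to differ at 2-fold, with 0.5 CPM added, where the higher had 5 CPM or more. The scripts were tested on simulated data.

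Genes were named by rule: the 12 called higher and the 12 called lower with the largest fold, no overlap and a mean of 5 CPM in the higher group; TMEFF2, KLK3, KLK2, TMPRSS2, FKBP5, NDRG1, MYC and CDK1; up to 3 called members of each list and direction (all where there were 5 or fewer); the 5 with the smallest interaction p in each direction; and the 5 with the largest gain and the 5 with the largest loss in CPM. Other list members, genes with unlike columns and the 4 opposite calls were named after their values were seen. The comparison, the lists and the members were chosen with earlier results of these data known, so no count over a list carries a p. Some genes that the rule names are not reported here, and they stay in the fit and in the counts over lists.

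Alternatives were DESeq2 1.42.0, limma-voom (limma 3.58.1), other scalings, other filters, the replicate block, each column alone, the sh_TMEFF2 libraries alone and each library left out. Chosen after seeing the data were the counts without genes whose columns differed and the block within the sh_TMEFF2 libraries. Whether equally numbered libraries are pairs is not given in the sources used here, and the main fit did not pair them. Deviations from the group means of equally numbered sh_TMEFF2 libraries correlated at 0.169, 0.0546 and 0.142. Their second principal component (18.9% of the variance) ran by number in both groups. It was 15.2, -5.69 and -23.4 without and 26.8, 8.74 and -21.6 with DHT. An unpaired test counts such shared shifts as spread, so genes that miss the threshold may still respond. Promoters and gene positions came from RefSeq (GRCh38.p14) and GENCODE (GRCh38), matched by symbol.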

Additional observations from a re-analysis of the deposited data

Results flagged for a closer look

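The response to DHT differed between the lines by the interaction term (edgeR, adjusted p of at most 0.05) for 33 of the genes named by the rule, 13 with a positive and 20 with a negative difference of log2 responses, sh_TMEFF2 minus sh_scramble. These genes were named partly for that test.

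Among androgen-induced and androgen-metabolising genes the difference was -2.50 for FKBP5, -1.48 for NDRG1, -1.98 for ACSL3, -1.07 for SORD, -0.84 for ABHD2 and -2.45 for UGT2B28. Among genes that fell in sh_scramble it was 1.40 for CAMK2N1, 1.68 for DDC, 2.62 for VWA2, 2.62 for SI, 1.12 for SESN3, 1.05 for ASAP2 and 1.30 for GRB10.

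For cell cycle and chromatin genes the difference was 0.65 for CDK1, 0.87 for CENPI, 0.80 for NUSAP1 and 0.75 for HELLS. BCL2 had 1.33, lost under 11 of 20 alternatives, with 1.12 to 1.52 when 1 library was left out.

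Lipid and glycosylation genes had -1.01 (ELOVL7), -0.75 (ELOVL5) and -0.87 (UAP1). The call of ELOVL7 was lost under 10 of 21 alternatives, with -1.16 to -0.83 when 1 library was left out, and that of UAP1 without sh_scramble -DHT replicate 1 (-0.83) or +DHT replicate 1 (-0.85). SLC41A1 had -2.06, LIFR -1.64 and KRT19 -1.63, and the call of KRT19 was lost under 7 of 20 alternatives.

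Among the genes with the largest rises CHRNA2 had -2.79, HPGD -2.98, ZNF812P -1.73 and SDK2 8.07. ZNF812P lost its call under 9 of 21 alternatives, with -2.06 to -1.50 when 1 library was left out. SDK2 had 5.29 CPM in 1 sh_scramble -DHT library, replicate 1, and its difference was 4.46 without it (adjusted p = 0.062).

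The differences of 5 genes, CH17-13I23.3 (-5.28), ARFGAP2 (-2.38), RP11-632K20.7 (-1.86), PPP1R7 (-1.67) and ITSN1 (-1.38), moved with the excess in the second columns of the sh_TMEFF2 -DHT libraries. With the first column alone, ARFGAP2 had -0.06 and PPP1R7 -0.31, and neither passed the test.

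The interaction term also passed for 15 genes named for other reasons, 6 with a positive and 9 with a negative difference. The values were 5.86 for KCNH3, 1.96 for LAIR1, 1.57 for ZPLD1, 2.05 for UGT2B17, 0.92 for BARD1 and 2.36 for COL3A1. They were -1.20 for PRKCA, -1.49 for KRT8, -1.07 for KRT18, -1.04 for HSPA5, -0.52 for XBP1, -0.97 for FASN, -4.72 for STEAP4, -0.68 for SEC61B and -2.92 for MAF. The calls of LAIR1 and HSPA5 were lost under 8 of 20 and 8 of 21 alternatives and that of UGT2B17 under 10 of 21, with 1.76 to 2.14, -1.19 to -0.86 and 1.54 to 2.35 when 1 library was left out. Those of KCNH3 and ZPLD1 were lost with limma-voom and with the second column alone, and that of COL3A1 with either column alone.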

How the results depend on the processing

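The count of genes that rose stayed within 1.5 times of 506 under every alternative run. Leaving out 1 library gave 103 to 335 genes that fell, 127 to 294 with a positive and 329 to 471 with a negative difference. Positive differences numbered 479 with DESeq2, 432 with the replicate block, 169 with the first and 148 with the second column, and the causes were not tested. With the replicate block 539 genes rose, 299 fell and 688 had a negative difference. It also gave 38 positive differences among the 179 replication, repair and mitosis genes, 13 of them in the mitotic entry list, and 16 negative differences among the cholesterol genes. The replicate numbers were not taken as pairs, although every sh_TMEFF2 library correlated best with its own number, which is a hint from the data and not from the design. Of the results for single genes, 3288 stayed on the same side of the threshold, and 259 lost and 4 gained a call in the same direction. In 7 the direction reversed where the main fit or the alternative passed. Changes of direction where neither passed are among the 3288. With the first column alone the log2 fold change was 0.40 for RP11-632K20.7 (difference 0.15), 0.11 for ITSN1 (difference 0.19), 0.013 for RPS18 and 0.36 for SMN2, since the excess lies in the second column, and with the second alone KCNH3 had -0.73. Of the list medians 612 moved less than the spread between libraries and 4 moved more.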
